A study of Homo sapiens with 8 samples.

Results

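Solute carriers are membrane proteins that move nutrients, ions and metabolites across the plasma membrane and the membranes of organelles. The genes described here are those whose name in the H3K9ac peak lists begins with SLC and a number, without the mitochondrial carriers of the SLC25 family and without the glucose carrier gene SLC2A1. They were 160 of the 12186 genes named in the lists. Their H3K9ac peaks are those that the authors' annotation assigned to the gene with the nearest transcription start site (TSS). Their H3K27ac peaks are those with a centre within 2 kb of the centre of such an H3K9ac peak in either list. Of the 160 names, 148 belong to carriers, and the other 12 are antisense RNAs, pseudogenes or other genes named after a carrier. These 12 are kept apart only where carriers are compared by class. Counts, medians and calls of members take in all 160 names.

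The study mapped acetylation of histone H3 at lysine 9 (H3K9ac) and lysine 27 (H3K27ac) by chromatin immunoprecipitation and sequencing in MIA PaCa-2, an established line of pancreatic carcinoma cells. Stromal cultures grew in a gel of hyaluronan and a polyethylene glycol cross-linker with a collagen-derived component (Gelin-S), in medium with 2% serum that immortalised myofibroblasts from resected pancreatic tumours had conditioned for 48 h. Astromal cultures grew in the same gel with water in place of Gelin-S, in plain medium with 2% serum. Cells in either gel had medium with 10% serum until the next day and grew into spheroids. The collagen component and the conditioned medium changed together, so their parts cannot be told apart. Only 1 library was made for each mark in each condition, and without replicates no p-value is given between conditions. The question of the design is how acetylation differs between stromal and astromal culture.

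The lists held 20326 stromal and 7141 astromal H3K9ac peaks, and 15093 stromal and 14489 astromal H3K27ac peaks. Depth was 7569791 stromal and 3923202 astromal tags (aligned reads) for H3K9ac, both estimated from the values, and 17190695 stromal and 13453902 astromal tags for H3K27ac. A level is the authors' tag count of a peak, normalised to 10000000 tags of the library and summed over the peaks of a gene. A ratio is the log2 of stromal over astromal normalised tags of a gene with peaks in both lists, centred on the median of all such genes. That median was 0.99 for H3K9ac, over 5706 genes, and −0.17 for H3K27ac, over 7964 genes. The call higher or lower asked for a centred difference of 2-fold or more with an interval free of 0. Intervals are exact Clopper-Pearson intervals at 95% and cover counting error only, not the spread between cultures. Of the marker genes of carcinoma cells, KRT18 had H3K9ac in both lists. KRT8 and KRT19 had it in the stromal list only, at 40.9 and 30.4 normalised tags. KRT8, KRT18 and KRT19 had H3K27ac in both conditions, whereas EPCAM and CDH1 were named by no H3K9ac peak. Of 6 myofibroblast markers, ACTA2, COL1A1 and COL1A2 had H3K9ac in the stromal list only, at 29.0, 17.2 and 111.0 normalised tags, and only COL1A2 had H3K27ac, with 67.5 stromal and 89.2 astromal tags. Of 3 mesenchymal markers VIM alone was named, with 92.5 stromal H3K9ac and 20.4 stromal H3K27ac tags and no astromal peak of either mark. None of 3 acinar markers was named. The part of carried-over or other cells in the carrier values was not tested.

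Carriers set which nutrients a cell can take up and which ions and products it can expel. Amino acid carriers of the SLC1, SLC7 and SLC38 families supply glutamine, leucine and cystine to growing tumour cells, and pancreatic carcinoma cells are known for a high demand for glutamine. Glucose, phosphate, bicarbonate, zinc, lactate and nucleosides each have families of their own, and the equilibrative nucleoside carriers also take up nucleoside drugs such as gemcitabine. H3K9ac marks active promoters and H3K27ac active promoters and enhancers. Neither mark measures the amount of RNA or protein.

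More members were named in the stromal than in the astromal H3K9ac list, as were more of all genes. All 160 had a peak in the stromal list and 66 in the astromal list. Of all 12186 genes named, 12072 had a stromal and 5820 an astromal peak. Membership itself asks for an H3K9ac peak in either list, so members of the stromal list only entered through that list. Members with H3K9ac in the stromal list only numbered 94 (58.8%, interval 50.7 to 66.5), against 52.2% of all genes named. Members with H3K9ac in both lists numbered 66 (41.2%, interval 33.5 to 49.3), against 46.8% of all genes. No member was in the astromal list only (0 of 160, interval up to 2.28%), against 0.935% of all genes. The share of all genes in the stromal list only lies within the interval of the members. The stromal H3K9ac library was also the deeper one. The median peak had 20 tags before normalisation in the stromal list and 9 in the astromal list. The part of depth in these counts was not tested.

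H3K27ac was more even between the conditions, and a smaller share of members than of all genes had it in both lists. Members with H3K27ac in the stromal list only numbered 16 (10.0%, interval 5.82 to 15.7), against 5.2% of all genes. Members in the astromal list only numbered 15 (9.38%, interval 5.34 to 15.0), against 7.64%. Another 85 members had H3K27ac in both lists (53.1%, interval 45.1 to 61.0, against 65.4%) and 44 in neither (27.5%, interval 20.7 to 35.1, against 21.8%). The interval of the share in both lists lies below the share of all genes, and that of the share in the stromal list only lies above it. This is no test of the members as a set. H3K27ac was sought only near H3K9ac peaks, and 14 of the 16 members had H3K9ac in the stromal list only. With at least 20 normalised tags per peak the 16 became 2. The part of this search in the shares was not tested.

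H3K27ac was more frequent at members with H3K9ac in both lists. Of the 66 members with H3K9ac in both lists, 58 had stromal H3K27ac (87.9%, against 88.3% of all such genes) and 62 had astromal H3K27ac (93.9%, against 90.6%). Of the 94 members with stromal H3K9ac only, 43 had stromal H3K27ac (45.7%, interval 35.4 to 56.3, against 54.6%) and 38 had astromal H3K27ac (40.4%, interval 30.4 to 51.0, against 57.2%). The largest combined sets were 56 members with both marks in both conditions (35.0%, against 39.8% of all genes), 42 with stromal H3K9ac and no H3K27ac (26.2%, against 18.8%) and 29 with stromal H3K9ac and H3K27ac in both conditions (18.1%, against 24.9%). In 14 members both marks were in the stromal lists only (8.75%, against 3.57% of all genes). In 9 members H3K9ac was in the stromal list only and H3K27ac in the astromal list only (5.62%, against 4.95% of all genes). SLC16A3, the lactate exporter of glycolytic cells, was among these 9, with 26.4 stromal H3K9ac tags and 7.43 astromal H3K27ac tags.

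**Figure D1:**
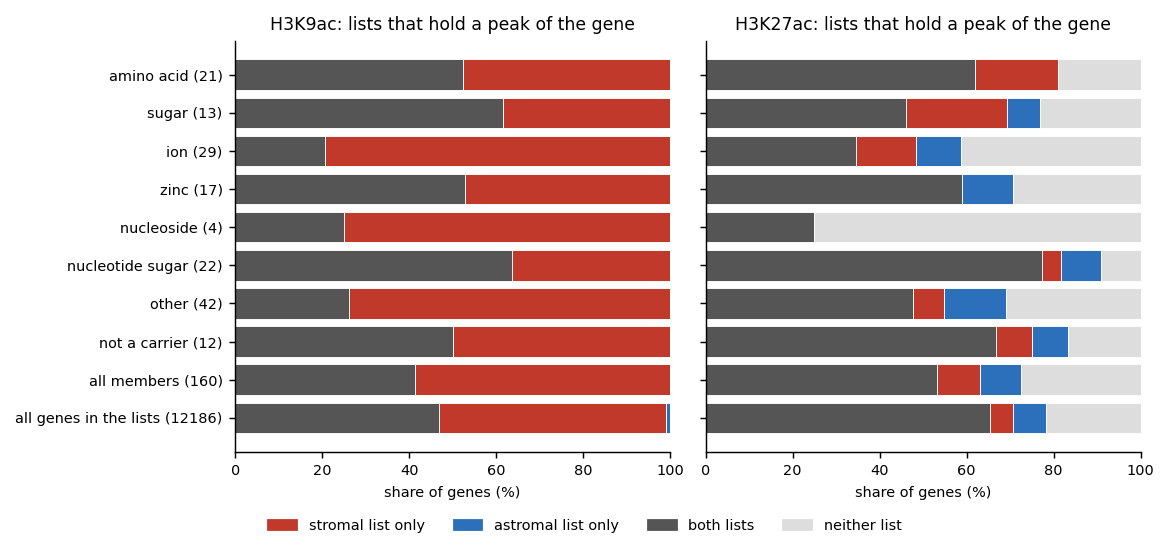
Share of genes (%) by the lists that hold a peak of the gene, for H3K9ac (left) and H3K27ac (right), with the number of genes of each class in brackets and all 12186 genes in the lists at the bottom. Of 29 ion carriers 23 had H3K9ac in the stromal list only, and 12 had no H3K27ac.

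Carriers were classed by family name, and the substrate is not known for all of them, for example SLC38A6 and several SLC35 genes. H3K9ac in the stromal list only was found for 23 of 29 ion carriers (79.3%, interval 60.3 to 92.0) and 31 of 42 carriers of other solutes (73.8%, interval 58.0 to 86.1). The share was 10 of 21 among amino acid carriers (47.6%, interval 25.7 to 70.2), 8 of 17 among zinc carriers (47.1%, interval 23.0 to 72.2) and 5 of 13 among sugar carriers (38.5%, interval 13.9 to 68.4). It was 8 of 22 in the SLC35 family of nucleotide sugar carriers (36.4%, interval 17.2 to 59.3) and 3 of 4 among nucleoside carriers (interval 19.4 to 99.4%). The intervals of the ion class and of the other solutes leave out the 52.2% of all genes, and those of the remaining carrier classes include it. These intervals treat genes as independent, are not adjusted for the number of classes and do not measure the spread between cultures. The classes were chosen with earlier results of these data known, so the intervals give no test of a class. The median stromal H3K9ac level was 33.0 tags in the ion class and 31.8 for the other solutes. It was 47.5 for amino acid, 46.25 for nucleotide sugar, 39.6 for zinc, 33.0 for sugar and 27.05 for nucleoside carriers. The part of level and depth in these shares was not tested. H3K27ac in at least 1 condition was found for 20 of 22 nucleotide sugar carriers, 17 of 21 amino acid carriers, 10 of 13 sugar carriers, 12 of 17 zinc carriers, 17 of 29 ion carriers, 29 of 42 carriers of other solutes and 1 of 4 nucleoside carriers, against 78.2% of all genes.

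Among the amino acid carriers, SLC3A2 had the most H3K9ac. It encodes the heavy chain (4F2hc) that escorts the SLC7 light chains to the cell surface. Its summed level was 142.7 stromal and 66.3 astromal H3K9ac tags, and 73.4 stromal and 109.2 astromal H3K27ac tags. The centred log2 ratios were 0.12 (interval −0.51 to 0.80) for H3K9ac and −0.41 (interval −0.76 to −0.05) for H3K27ac, and neither is called. The H3K9ac ratio was −0.14 by the highest peak, and the H3K27ac ratio was −2.22, and would be called lower, with peaks at least 5-fold over the surrounding region. It had 3 stromal H3K9ac peaks and 2 astromal ones. The stromal peak that no astromal peak overlapped (hg19, chr11:62623829-62624039, 450 bp downstream of the start farthest upstream, 42.3 tags) lay in a promoter. H3K27ac was present there in both conditions, with 17.5 stromal and 20.8 astromal tags in overlapping peaks. SLC7A5, the leucine carrier (LAT1) that pairs with SLC3A2, had 39.6 stromal and 17.8 astromal H3K9ac tags, and 30.8 stromal and 20.8 astromal H3K27ac tags. None of its H3K9ac peaks overlapped between conditions. The stromal ones lay 2145 and 15999 bp downstream of the start and the astromal one 1169 bp downstream, all in intron 1. A further H3K27ac peak, 3103 bp (stromal, 14.0 tags) and 3117 bp (astromal, 14.1 tags) from the nearest H3K9ac peak, fell outside the 2 kb limit.

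The bases before the start of these partners are shown because the pair works as 1 carrier, with H3K9ac of SLC3A2 at its promoters and that of SLC7A5 in intron 1. They are the 250 bases before the start, from RefSeq on GRCh38.p14, with capitals at each GGGCGG (GC box), read on both strands, and, in SLC7A5, at the CACGTG (E-box). SLC3A2 has 3 starts in the table and the one farthest upstream is given, at chr11:62855859-62856108 on the plus strand. SLC7A5 is at chr16:87869508-87869757 on the minus strand.
SLC3A2: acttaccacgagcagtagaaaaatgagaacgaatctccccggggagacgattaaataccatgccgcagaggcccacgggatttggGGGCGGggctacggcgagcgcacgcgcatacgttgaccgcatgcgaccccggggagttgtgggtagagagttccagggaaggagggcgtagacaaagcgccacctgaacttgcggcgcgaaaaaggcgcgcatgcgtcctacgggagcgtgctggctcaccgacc
SLC7A5: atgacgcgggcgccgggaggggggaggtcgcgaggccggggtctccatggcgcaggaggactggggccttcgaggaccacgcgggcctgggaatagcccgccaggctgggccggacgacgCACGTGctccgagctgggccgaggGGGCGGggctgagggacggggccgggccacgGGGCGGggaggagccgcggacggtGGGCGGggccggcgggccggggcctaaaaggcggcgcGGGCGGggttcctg

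Other amino acid carriers had H3K9ac in both lists. SLC1A5, the main glutamine carrier (ASCT2), had 84.5 stromal and 28.0 astromal H3K9ac tags, and 41.9 stromal and 24.5 astromal H3K27ac tags. Its centred H3K9ac ratio of 0.61 was the highest of the class. An astromal H3K27ac peak of 20.8 tags, 2450 bp from its nearest H3K9ac peak, was outside the limit and is not in these sums. By the sum, SLC38A2, a sodium-coupled carrier of small neutral amino acids, had the lowest ratio of the class in both marks, −0.81 for H3K9ac (31.7 stromal and 28.0 astromal tags) and −0.76 for H3K27ac (23.9 stromal tags in 1 peak and 45.3 astromal tags in 2 peaks). Its H3K27ac ratio turned to 0.08 by the highest peak, 0.03 with at least 20 normalised tags per peak and 0.06 with peaks at least 5-fold over the surrounding region. SLC7A11, the cystine and glutamate exchanger (xCT), had 26.4 stromal and 22.9 astromal H3K9ac tags in overlapping peaks of its first exon, and 35.5 stromal and 45.3 astromal H3K27ac tags. SLC38A1, a glutamine carrier of the same family as SLC38A2, had 76.6 stromal and 30.6 astromal H3K9ac tags, with 19.24 stromal and 17.8 astromal H3K27ac tags. SLC7A6, an exchanger of cationic for neutral amino acids, had 81.9 stromal and 53.5 astromal H3K9ac tags, and 29.1 stromal and 30.5 astromal H3K27ac tags.

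Some amino acid carriers had no called H3K9ac peak in the astromal list, the one with the fewest tags per peak before normalisation. SLC6A9, the glycine carrier GlyT1, had the most H3K9ac of all stromal-only members, 101.7 stromal tags in 3 peaks over intron 1. Its H3K27ac was 10.5 stromal and 6.69 astromal tags in peaks that did not overlap, the stromal one 1556 bp and the astromal one 298 bp downstream of the start. SLC1A4, a carrier of alanine, serine and cysteine (ASCT1), had 22.5 stromal H3K9ac tags and no H3K27ac. SLC38A4, a system A carrier, had the most H3K27ac among members with stromal H3K27ac only, 19.2 tags in 1 peak 112453 bp upstream of its start, with 27.7 stromal H3K9ac tags in 2 distal peaks. In SLC38A6, an orphan of the family with 51.5 stromal and 25.5 astromal H3K9ac tags, the summed H3K27ac was 87.8 stromal and 31.2 astromal tags in 5 and 2 peaks. Of the stromal ones, 2 lay 121700 and 122173 bp downstream of the start, beside a stromal H3K9ac peak at 122150 bp, where the astromal lists had no peak.

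**Figure D2:**
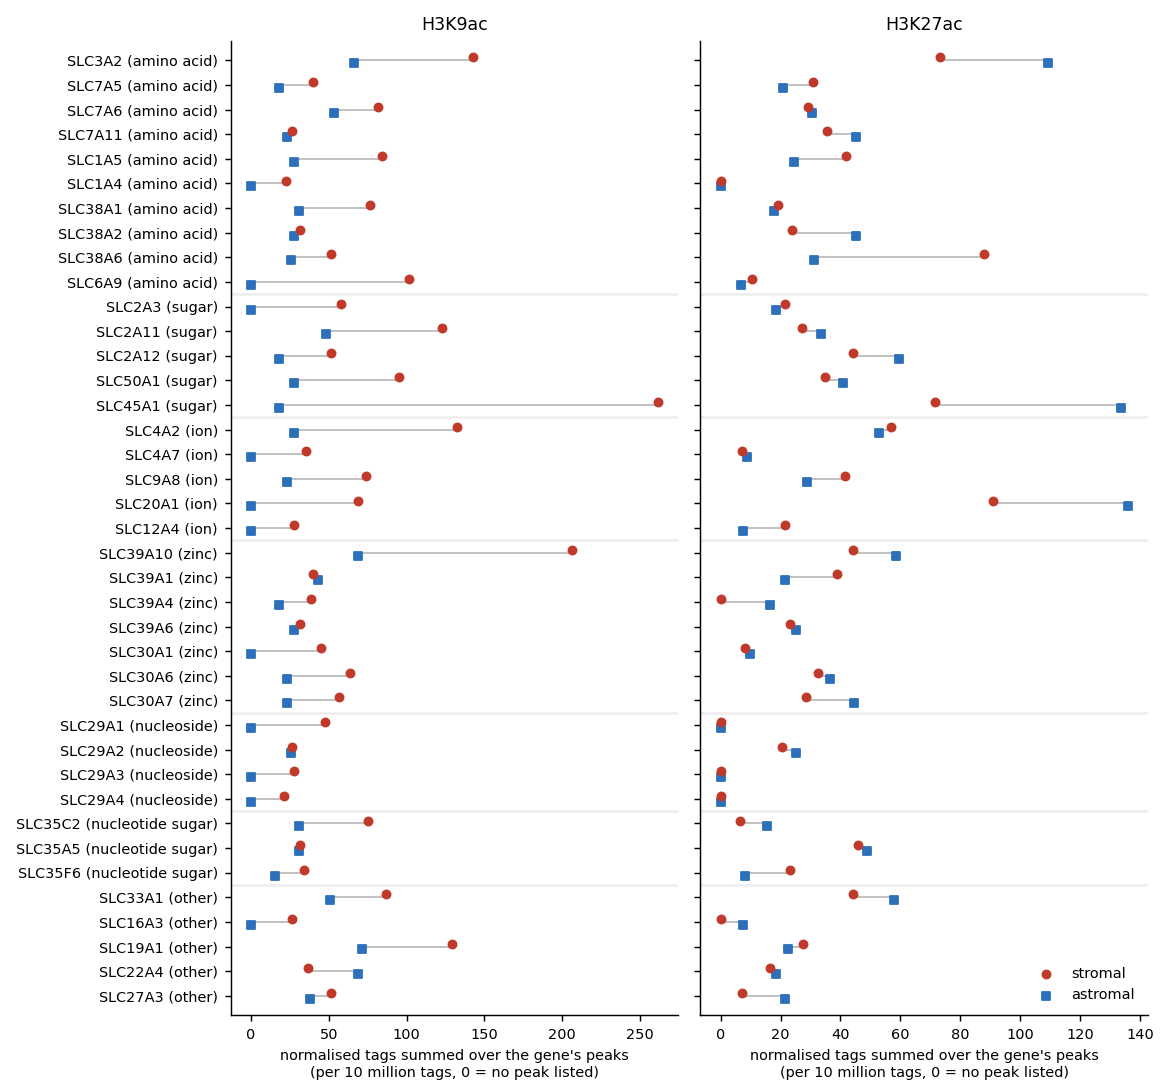
Normalised tags summed over the peaks of a gene (per 10000000 tags of the library), for H3K9ac (left) and H3K27ac (right), with stromal values as circles and astromal values as squares; 0 means that the list holds no peak. The 39 members shown are described in the text and grouped by class. In H3K9ac the stromal value is the higher one for all shown but SLC39A1 and SLC22A4, and in H3K27ac the order varies.

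Sugar carriers ranged in centred H3K9ac ratio between −0.71 (SLC2A10) and 2.89 (SLC45A1). SLC45A1, a proton-coupled sugar carrier, had the highest summed H3K9ac of all members, 261.6 stromal tags in 12 peaks covering 2520 bp, against 17.8 astromal tags in 1 peak of 200 bp. The mean per peak was 21.8 stromal and 17.8 astromal tags. Of its stromal peaks, 10 lay between 77933 and 136278 bp upstream of the start in intergenic sequence, and only 1 lay at the promoter (197 bp upstream, 14.5 tags). Its summed H3K27ac was 71.5 stromal tags in 3 peaks (525 bp) and 133.78 astromal tags in 6 peaks (1182 bp). The mean H3K27ac per peak was 23.8 stromal and 22.3 astromal tags, and the centred ratio was −0.74 by the sum and −0.09 by the highest peak. At 135213 and 115456 bp upstream the astromal list had H3K27ac of 30.5 and 34.9 tags, where the stromal H3K27ac list had none and the stromal H3K9ac list had peaks. Assignment of these distal peaks to SLC45A1 rests on the nearest start only.

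**Figure D3:**
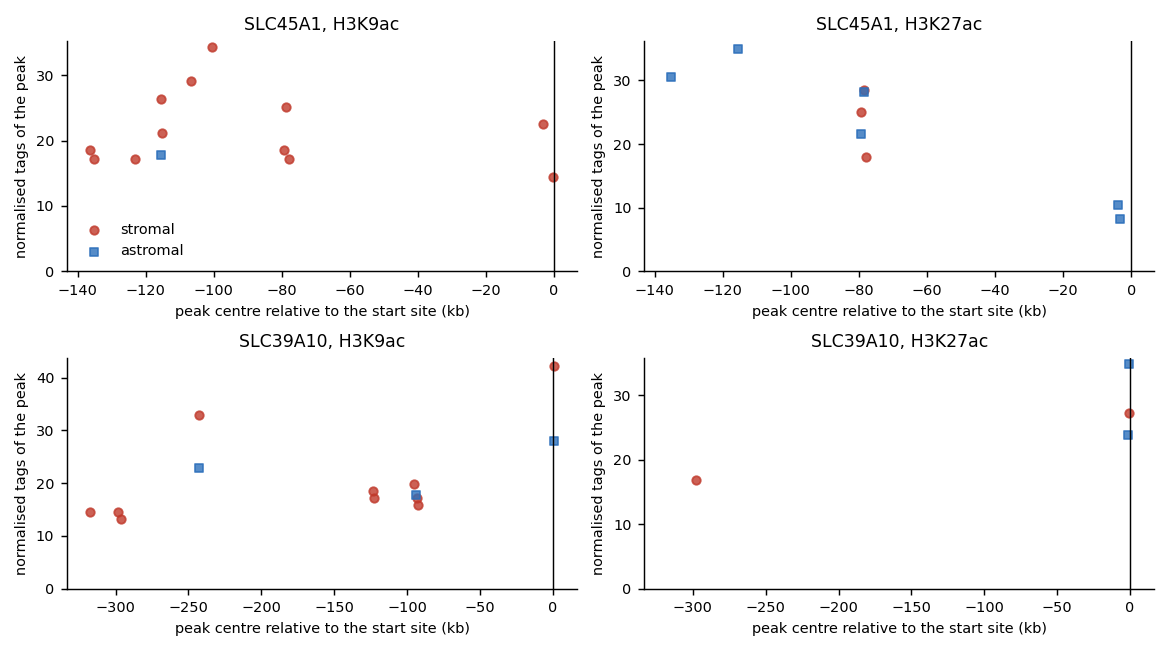
Normalised tags of each peak assigned to SLC45A1 (top) and SLC39A10 (bottom) by the distance of its centre from the start site (kb, negative is upstream), for H3K9ac (left) and H3K27ac (right), with stromal peaks as circles and astromal peaks as squares. The vertical line marks the start. Most stromal H3K9ac peaks of either gene lie more than 70 kb upstream.

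The highest H3K9ac peaks of SLC2A11, SLC50A1 and SLC2A12 lay near the start. SLC2A11, a hexose carrier (GLUT11), had 122.9 stromal and 48.4 astromal H3K9ac tags, and 27.3 stromal and 33.4 astromal H3K27ac tags. SLC50A1, the human member of the SWEET sugar carriers, had 95.2 stromal and 28.0 astromal H3K9ac tags with 34.9 stromal and 40.9 astromal H3K27ac tags. SLC2A12, another glucose carrier, had 51.5 stromal and 17.8 astromal H3K9ac tags, and 44.3 stromal and 59.4 astromal H3K27ac tags. Their centred H3K27ac ratios were −0.12 for SLC2A11, −0.06 for SLC50A1 and −0.26 for SLC2A12, with no call in either mark, and that of SLC2A11 was 0.02 by the highest peak. SLC2A3, the high-affinity glucose carrier GLUT3, had 58.1 stromal H3K9ac tags and none in the astromal list, with 21.6 stromal and 18.58 astromal H3K27ac tags. Its peaks were intergenic, 24779 and 34002 bp upstream, and no H3K9ac peak lay at its own start.

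Ion carriers were led by SLC4A2, a chloride and bicarbonate exchanger (AE2). It had 132.1 stromal H3K9ac tags in 3 peaks (630 bp) and 28.0 astromal tags in 1 peak (200 bp), with a mean per peak of 44.0 stromal and 28.0 astromal tags. Its H3K27ac was nearly level, 57.0 stromal and 52.8 astromal tags in 2 overlapping peaks each. SLC9A8, a sodium-proton exchanger of the Golgi, had 74.0 stromal and 22.9 astromal H3K9ac tags, and 41.4 stromal and 28.96 astromal H3K27ac tags. SLC12A7, a potassium-chloride cotransporter (KCC4), had the lowest H3K9ac ratio of the class among members with at least 10 tags in each library, −0.58, with 37.0 stromal and 28.0 astromal tags and no H3K27ac. SLC4A7, a sodium-bicarbonate cotransporter, had 35.7 stromal H3K9ac tags and none astromal, with 6.98 stromal and 8.92 astromal H3K27ac tags. SLC9B1 and SLC9C1, of the sodium-proton exchanger superfamily, had 18.66 and 15.71 stromal H3K27ac tags and 38.3 and 14.5 stromal H3K9ac tags, with no astromal peak. SLC12A2, the sodium-potassium-chloride cotransporter NKCC1, was named by no H3K9ac peak, so no value is given for it.

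SLC20A1, a sodium-phosphate cotransporter (PiT1), had 68.8 stromal H3K9ac tags in 3 peaks and none in the astromal list. In H3K27ac it had the highest summed level of all members in both conditions, 90.8 stromal tags in 4 peaks and 136.0 astromal tags in 5 peaks. The promoter H3K9ac peak (hg19, chr2:113403048-113403258, centre 281 bp upstream of the start) had 30.4 stromal tags, and the H3K27ac peaks 809 bp (stromal) and 762 bp (astromal) upstream overlapped, with 23.3 stromal and 31.2 astromal tags. The other peaks of both marks lay between 45338 and 47251 bp downstream. The centred H3K27ac ratio was −0.42. With H3K27ac peaks within 0.5 kb only, it was −1.04 and would be called lower, and with peaks at least 5-fold over the surrounding region it was −1.54. By the highest peak it was −0.05. The stromal H3K9ac peak lay just upstream of the start, with its centre 281 bp away, and does not cover the bases nearest the start. The 250 bases before the start are shown because of that position. They are at chr2:112645689-112645938 on the plus strand of GRCh38.p14 (RefSeq), with capitals at CACGTG (E-box), CCAAT (NFY box) and TGACNNNGC (antioxidant response element, ARE), each sought on both strands.
SLC20A1: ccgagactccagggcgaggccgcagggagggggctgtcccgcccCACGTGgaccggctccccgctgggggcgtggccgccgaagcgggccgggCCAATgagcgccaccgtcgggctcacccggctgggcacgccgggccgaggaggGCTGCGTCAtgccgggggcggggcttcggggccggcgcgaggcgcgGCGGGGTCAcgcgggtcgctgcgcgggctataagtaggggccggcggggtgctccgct

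Zinc carriers include exporters (SLC30) and importers (SLC39). SLC39A10, an importer of the plasma membrane, had 206.1 stromal H3K9ac tags in 10 peaks and 68.7 astromal tags in 3 peaks. Of the stromal peaks 9 lay 92699 to 317435 bp upstream in intergenic sequence, 3 of them in repeats, so the sum speaks mostly of sites far from the gene. At the promoter itself the overlapping H3K9ac peaks had 42.3 stromal and 28.0 astromal tags. Its summed H3K27ac was 44.2 stromal and 58.7 astromal tags. An astromal H3K27ac peak of 23.8 tags lay 1853 bp from the H3K9ac peak and so entered by a narrow margin. SLC39A6, an importer whose gene was first known as oestrogen-responsive LIV-1, had 31.7 stromal and 28.0 astromal H3K9ac tags, and 23.3 stromal and 25.3 astromal H3K27ac tags. SLC39A4, the zinc importer of the intestine, had 38.3 stromal and 17.8 astromal H3K9ac tags in overlapping peaks, and H3K27ac in the astromal list only, at 16.4 tags. That was the most H3K27ac among members with astromal H3K27ac only, ahead of SLC22A18, an organic cation carrier-like gene, at 11.9 tags.

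SLC39A1, another importer of the plasma membrane, was the only member with a call in both marks, and in opposite directions. Its H3K9ac was 39.6 stromal tags in 1 peak and 43.3 astromal tags in 2 peaks, a centred ratio of −1.12. Its H3K27ac was 39.0 stromal tags in 2 peaks and 21.6 astromal tags in 1 peak, a centred ratio of 1.02. The extra astromal H3K9ac peak (hg19, chr1:153935850-153936050) held 9 of 17 astromal tags before normalisation. The extra stromal H3K27ac peak (chr1:153936371-153936545) held 33 of 67 stromal tags before normalisation. Their centres lay 508 bp apart, near another start of the gene. By the highest peak neither call holds, and the H3K9ac ratio turned to 0.12. Among the exporters, SLC30A6 and SLC30A7 of the Golgi had H3K9ac in both lists, with 63.4 stromal and 22.9 astromal tags for SLC30A6 and 56.8 stromal and 22.9 astromal tags for SLC30A7. SLC30A7 had the lowest H3K27ac ratio of the class, −0.48, with 28.5 stromal and 44.6 astromal tags. Its ratio was −1.14, and would be called lower, with H3K27ac peaks within 1 kb only, and −1.13 with peaks at least 5-fold over the surrounding region. It was −0.09 with H3K27ac within 0.5 kb and −0.15 by the highest peak.

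SLC30A1 encodes the zinc exporter of the plasma membrane and is a textbook target of the zinc sensor MTF1. It had 45.0 stromal H3K9ac tags and none astromal, with H3K27ac nearly level at 8.14 stromal and 9.66 astromal tags. The stromal H3K9ac peaks flanked the promoter, 646 bp downstream (29.1 tags) and 1192 bp upstream (15.9 tags). Its promoter is shown for the metal response element (MRE) letters TGCACNC, sought on both strands, which it holds once on the minus strand in capitals together with CCAAT. The 250 bases are at chr1:211579162-211579411 on the minus strand of GRCh38.p14 (RefSeq).
SLC30A1: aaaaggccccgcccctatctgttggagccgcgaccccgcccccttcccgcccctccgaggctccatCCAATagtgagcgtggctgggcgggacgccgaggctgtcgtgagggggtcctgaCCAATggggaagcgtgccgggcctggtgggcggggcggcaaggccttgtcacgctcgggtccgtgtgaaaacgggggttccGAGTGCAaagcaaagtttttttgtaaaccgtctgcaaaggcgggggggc

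All 4 equilibrative nucleoside carriers of the SLC29 family were members. SLC29A2 (ENT2) was the one with H3K9ac in both lists, with 26.4 stromal and 25.5 astromal tags in overlapping peaks at the start. Its H3K27ac was 20.36 stromal and 25.3 astromal tags in peaks that did not overlap. The centred ratios were −0.94 and −0.15, neither called. SLC29A1 (ENT1), the main entry route of gemcitabine in the clinic of pancreatic cancer, had 47.5 stromal H3K9ac tags and none in the astromal list. SLC29A3, of lysosomes, had 27.7 stromal tags and SLC29A4, which also carries monoamines, 21.1, again with none in the astromal list. None of these 3 had H3K27ac in either condition. The H3K9ac peaks of SLC29A1 lay 165 bp upstream (hg19, chr6:44190971-44191181, 21.1 tags) and 408 bp downstream (26.4 tags) of the start, the second in a CpG island.

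The SLC35 family carries nucleotide sugars into the Golgi and the endoplasmic reticulum, where they feed glycosylation. In H3K9ac, 14 of its 22 members were in both lists, and their centred H3K9ac ratios ranged from −0.94 to 0.65 with no call. SLC35C2, a Golgi protein of the family, had the most stromal H3K9ac of the class, in overlapping peaks. It had 75.3 stromal and 30.6 astromal tags, or 57 and 12 before normalisation. Its H3K27ac was 6.4 stromal and 15.6 astromal tags, a centred ratio of −1.12, called lower with an interval whose upper end was −0.0015. Under 6 of the alternatives the interval takes in 0, with ratios between −1.12 and −1.09. SLC35A2, the UDP-galactose carrier, had 67.4 stromal and 38.2 astromal H3K9ac tags, and 28.5 stromal and 14.1 astromal H3K27ac tags. SLC35F6 had 34.3 stromal and 15.3 astromal H3K9ac tags, and 23.3 stromal and 8.18 astromal H3K27ac tags in peaks that did not overlap. SLC35F5, a family member of unknown cargo, had 70.0 stromal and 35.6 astromal H3K9ac tags, and 11.6 stromal and 23.8 astromal H3K27ac tags. SLC35A4 had 47.6 stromal and 38.2 astromal H3K9ac tags, and 30.26 stromal and 34.12 astromal H3K27ac tags. SLC35E1 had 30.4 stromal H3K9ac tags with none astromal, and 11.1 astromal H3K27ac tags with none stromal. SLC35A5 had the most H3K27ac of the family, 46.0 stromal and 49.0 astromal tags in 3 peaks each, and the lowest H3K9ac ratio, −0.94, with 31.7 stromal and 30.6 astromal tags.

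Among carriers of other solutes, SLC19A1, the reduced folate carrier, had the most H3K9ac, 129.4 stromal tags in 4 peaks and 71.4 astromal tags in 3 peaks. Its H3K27ac was 27.4 stromal and 22.33 astromal tags, all more than 12 kb upstream of its start. SLC33A1, which brings acetyl-CoA into the endoplasmic reticulum, had 87.1 stromal and 51.0 astromal H3K9ac tags, and 44.2 stromal and 58.0 astromal H3K27ac tags. The 51.0 tags stood in the highest H3K9ac peak of any member in the astromal list. SLC44A2, a choline carrier-like protein, had 105.7 stromal and 25.5 astromal H3K9ac tags, and 13.38 stromal and 18.58 astromal H3K27ac tags. SLC16A5, SLC47A1 and SLC16A13 were among the 5 stromal-only members with the most H3K9ac. SLC16A5 and SLC16A13, of the monocarboxylate carrier family, had 96.5 and 83.3 stromal tags, and SLC47A1, an exporter of organic cations, had 93.9. All 3 had H3K27ac in both lists, with 24.5 stromal and 43.1 astromal tags for SLC16A5, 28.46 stromal and 37.9 astromal tags for SLC16A13, and 7.56 stromal and 8.18 astromal tags for SLC47A1. SLC31A1, the copper importer, had 31.7 stromal H3K9ac tags and none astromal, with 32.62 stromal and 29.7 astromal H3K27ac tags. Its H3K27ac ratio of 0.30 turned to −1.50, and would be called lower, with H3K27ac peaks within 0.5 kb. SLC16A1, the lactate carrier MCT1, was named by no H3K9ac peak. Its antisense gene SLC16A1-AS1 had 35.7 stromal and 20.4 astromal H3K9ac tags, and 26.2 stromal and 43.9 astromal H3K27ac tags.

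SLC22A4, a carrier of ergothioneine and carnitine, had 37.0 stromal H3K9ac tags in 1 peak of 210 bp and 68.8 astromal tags in 2 peaks of 400 bp in all. The mean per peak was 37.0 stromal and 34.4 astromal tags. The astromal peaks lay 972 and 436 bp upstream of its start and the stromal one 678 bp upstream, between them, and none overlapped. Its H3K27ac, 16.3 stromal and 18.6 astromal tags in overlapping peaks, had a centred ratio of −0.02. SLC27A3, of the fatty acid carrier and acyl-CoA synthetase family, had 51.5 stromal and 38.2 astromal H3K9ac tags in overlapping peaks about 8.3 kb downstream of the start, in a CpG island. Its H3K27ac was 6.98 stromal and 21.6 astromal tags, or 12 and 29 before normalisation, in peaks that did not overlap. It was the member called lower in H3K27ac by both the sum and the highest peak, with centred ratios of −1.46 (interval −2.57 to −0.45) and −1.43. Assignment of these peaks to SLC27A3 rests on the nearest start only. With peaks within 1 kb of a start SLC27A3 had no ratio, and 0 members were called lower in H3K27ac.

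The condition ratios of members followed those of all genes. For the 66 members with H3K9ac in both lists the median centred ratio was 0.06 (quartiles −0.37 and 0.48), against quartiles of −0.42 and 0.48 for all genes. For the 85 members with H3K27ac in both lists it was 0.03 (quartiles −0.19 and 0.38), against −0.36 and 0.36. Before centring, 64 of 66 members were above 0 in H3K9ac and 33 of 85 in H3K27ac. The share of all genes above 0 was not counted, and their median before centring was 0.99 in H3K9ac and −0.17 in H3K27ac.

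In H3K9ac 4 of 66 members were called higher, against 5.94% of all genes, and 2 lower, against 3.56%. The members called higher were SLC45A1 (2.89, interval 1.82 to 4.22), SLC4A2 (1.25, interval 0.35 to 2.30), SLC2A1-AS1 (1.18, interval 0.24 to 2.30) and SLC44A2 (1.06, interval 0.11 to 2.18). SLC2A1-AS1 is an RNA gene antisense to the left-out SLC2A1, and it had 114.9 stromal and 25.5 astromal tags. Its highest stromal peak and its astromal peak lay 34321 and 34461 bp upstream of its start. The members called lower were SLC22A4 (−1.88, interval −2.70 to −1.06) and SLC39A1 (−1.12, interval −2.02 to −0.17). Every member called higher had more peaks in the stromal than in the astromal list, and both called lower had fewer. Taking the highest peak of a gene in place of the sum left 0 called higher and 0 lower, where 0.21% and 0.613% of all genes were called. Without centring, where the median of all genes was 0.99, 28 members were called higher and 0 lower. The share of all genes called without centring was not counted. The uncentred ratios of SLC22A4 and SLC39A1 were −0.89 and −0.13.

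In H3K27ac 6 of 85 members were called higher, against 5.47% of all genes, and 2 lower, against 6.22%. Those called higher were SLC12A4, a potassium-chloride cotransporter (1.71, interval 0.67 to 2.88), SLC35F6 (1.68, interval 0.69 to 2.79), SLC38A6 (1.66, interval 1.16 to 2.19), SLC35A2 (1.18, interval 0.39 to 2.03), SLC39A1 (1.02, interval 0.37 to 1.70) and the iron importer SLC11A2 (1.00, interval 0.06 to 2.02). Their mean level per peak differed less than their sums. It was 10.8 stromal and 7.43 astromal tags for SLC12A4, which had 350 bp in 2 stromal peaks and 197 bp in 1 astromal peak. SLC38A6 had 875 bp in stromal and 394 bp in astromal peaks, with 17.6 stromal and 15.6 astromal tags per peak. SLC35F6 had 11.7 stromal and 8.18 astromal tags per peak and SLC35A2 had 14.2 stromal and 14.1 astromal. Per peak the stromal value was the lower one for SLC39A1, with 19.5 stromal and 21.6 astromal tags, and for SLC11A2, with 9.29 stromal and 10.4 astromal tags. All 6 had more peaks in the stromal list. The sum of SLC11A2 takes in a stromal peak of 6.98 tags, 1766 bp from the nearest H3K9ac peak. With H3K27ac peaks within 1 kb only, its ratio was 0.33 and lost the call. The ratio of SLC39A1 was 0.05, without a call, with H3K27ac peaks within 0.5 kb. That of SLC38A6 was 0.74, without a call, with peaks within 1 kb of a start. SLC27A3 and SLC35C2 were called lower, each with 1 peak in either list. By the highest peak 0 were called higher (0.465% of all genes) and 1 lower (0.866%), which was SLC27A3. The intervals of the members' shares called by the sum (1.68 to 14.8% and 0.369 to 10.5% in H3K9ac, 2.63 to 14.7% and 0.286 to 8.24% in H3K27ac, higher and lower) include the shares of all genes.

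**Figure D4:**
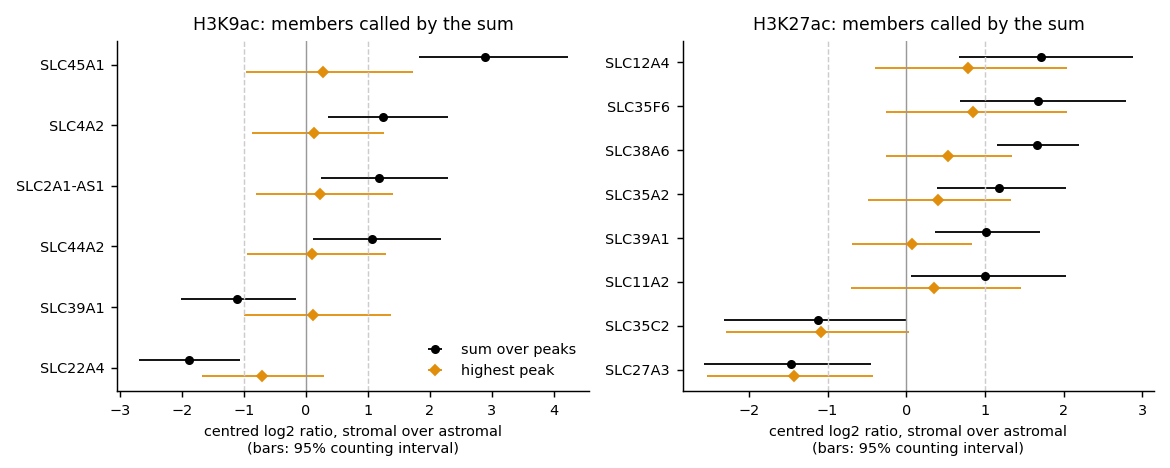
Centred log2 ratio of stromal over astromal normalised tags for every member called by the sum over its peaks (circles) and, beside it, by its highest peak (diamonds), for H3K9ac (left) and H3K27ac (right). Bars are 95% counting intervals, and dashed lines mark 2-fold. By the highest peak only SLC27A3 in H3K27ac is past 2-fold with an interval that leaves out 0.

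Member peaks lay mostly at promoters. There were 273 stromal and 77 astromal H3K9ac peaks, and 172 stromal and 155 astromal H3K27ac peaks. Within 1 kb of a start were 72.5% of stromal and 83.1% of astromal H3K9ac peaks, against 76.5% stromal and 86.1% astromal over all peaks. More of these lay downstream than upstream of the start, 62.6% stromal and 67.2% astromal, against 64.7% stromal and 68.3% astromal over all peaks. Another 31 stromal and 6 astromal H3K9ac peaks lay over 10 kb upstream, and SLC45A1 and SLC39A10 held 19 of the stromal ones. H3K27ac centres, taken only within 2 kb of an H3K9ac centre, lay a median of 113 bp (stromal) and 58 bp (astromal) from the nearest one. In the stromal list 84 members had 1 H3K9ac peak, 59 had 2 and 17 had 3 or more, and in the astromal list 57 had 1, 7 had 2 and 2 had 3.

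**Figure D5:**
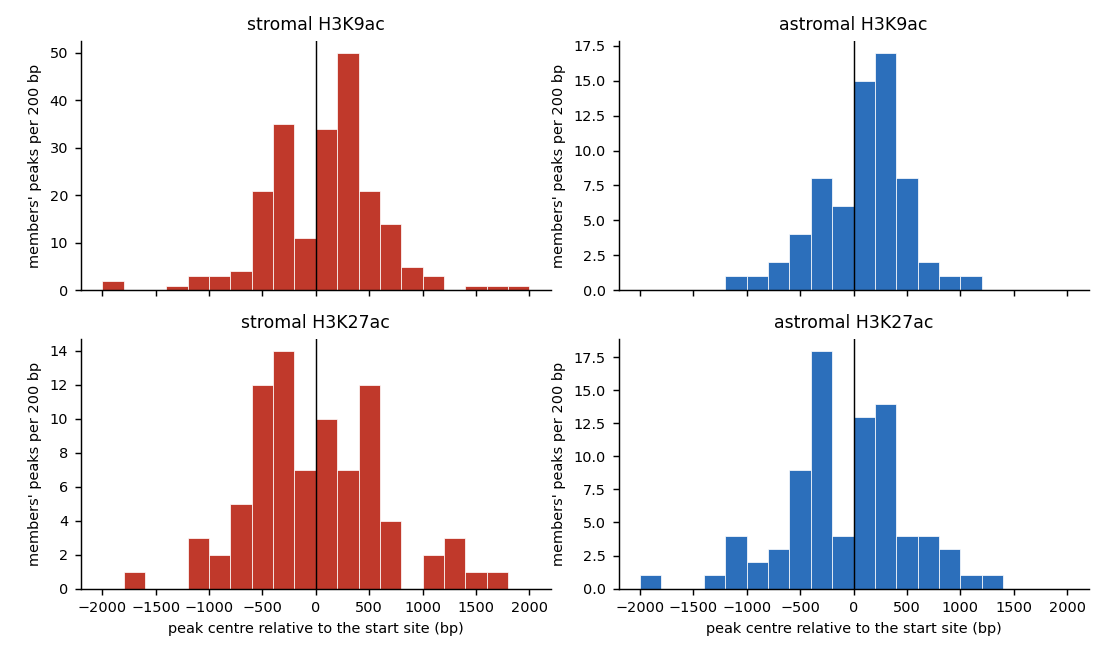
Number of member peaks per 200 bp by the position of the peak centre relative to the start site (bp, negative is upstream), within 2000 bp, for stromal (left) and astromal (right) lists of H3K9ac (top) and H3K27ac (bottom). Peaks flank the start on both sides with a dip at the start in the stromal H3K9ac list. H3K27ac peaks are shown where the strand could be worked out, 111 stromal and 108 astromal peaks at any distance.

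Site by site, 64 of 273 stromal (23.4%, interval 18.5 to 28.9) and 64 of 77 astromal (83.1%, interval 72.9 to 90.7) H3K9ac peaks of members overlapped a peak of the other list by at least 1 bp. Over all peaks the shares were 26.6% stromal and 75.8% astromal. Where peaks overlapped, the stromal level was the higher one in 59 of 64 pairs, with a median log2 ratio of 0.59 before centring. For H3K27ac, 94 of 172 stromal (54.7%) and 94 of 155 astromal (60.6%) peaks overlapped, against 58.4% stromal and 60.8% astromal over all peaks. The stromal level was the higher one in 30 of these 94 pairs, with a median log2 ratio of −0.15. Neither count of pairs was made over all overlapping peaks. By the highest peak of a gene, the median of all genes before centring was 0.67 in H3K9ac and −0.20 in H3K27ac. Stromal H3K9ac peaks that overlapped an astromal peak had a median of 34.3 tags, and those that did not 21.1.

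Of the 160 members, 127 (79.4%) had a promoter in the RefSeq table. As this is under 80%, a comparison of motifs or CpG over the members is void, and none is drawn. As background for the letters shown, CACGTG was in 7.26% of all 35116 promoters of 300 bp in the table and in 9.62% of the 13832 promoters of genes named in the H3K9ac lists. GGGCGG was in 45.0% of all and 66.9% of listed promoters, and CCAAT in 34.6% of either. TGACNNNGC was in 13.3% of all and 14.7% of listed promoters, and TGCACNC in 12.1% of all and 11.3% of listed promoters. Both strands were searched, the motifs do not exclude each other, and a match is a description of the letters only.

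Genes that work beside the carriers were looked at as a list of 24 partners and regulators. Of these, 19 were in the H3K9ac lists, 8 in the stromal list only and 11 in both, and 17 had H3K27ac in both lists and 2 in neither. Over all genes 52.2% had H3K9ac in the stromal list only, 46.8% in both, and 65.4% had H3K27ac in both lists. Of the 11 in both lists H3K9ac was called higher for 2 (against 5.94% of all genes) and lower for 0 (against 3.56%). Those called higher were ATP1B3, a subunit of the sodium pump (129.5 stromal and 20.4 astromal tags), and RRAGC (71.3 stromal and 15.3 astromal tags). RRAGC is a GTPase that relays lysosomal amino acids to mTORC1. H3K27ac was called for 0 of the list, against 5.47% higher and 6.22% lower of all genes. ATF4, the stress factor that induces amino acid carriers, had 93.8 stromal and 56.0 astromal H3K9ac tags, and 29.7 stromal and 24.5 astromal H3K27ac tags. MTF1 had 64.7 stromal and 22.9 astromal H3K9ac tags, and 19.83 stromal and 17.83 astromal H3K27ac tags. BSG, the chaperone of the lactate carriers, had 76.7 stromal and 33.1 astromal H3K9ac tags, and 22.7 stromal and 16.4 astromal H3K27ac tags.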

How the data were processed

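The deposited peak lists of 4 libraries (1 per mark and condition) were used. Input libraries (4) were not used here. CASAVA 1.8.2, Bowtie and HOMER with build hg19 were used, per the submitters' processing notes. H3K27ac peaks of 1 fixed width (175 bp stromal, 197 bp astromal) were called against input with at least 4-fold over input and over the surrounding 10 kb with the FDR set to 0.001, per the file headers. H3K9ac peaks were 210 bp (stromal) and 200 bp (astromal) wide, with calling thresholds not given in the sources used here.

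The signal was the authors' tag count per peak, normalised to 10000000 tags, with raw totals in the deposited H3K27ac headers. In the deposited H3K9ac lists the signal rises in steps of 1 tag, all values within 0.1 tag of a whole number, which gave tags and depth. The authors' fold over input and over the surrounding region and their p-values describe or filter peaks within a list. Not used further were the authors' fraction of a peak's tags near its centre and the authors' findPeaks score, and the distance to the TSS is the authors' own. Median tags per peak before normalisation were 20 (stromal) and 9 (astromal) for H3K9ac, and 20 (stromal) and 18 (astromal) for H3K27ac.

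Genes were compared by counts and by centred log2 ratios with exact conditional binomial intervals, on python 3.11.15, pandas 2.3.3, numpy 2.4.6 and scipy 1.17.1, and the steps were tested on simulated data. All 160 members matched RefSeq by gene ID. Strand was worked out from pairs of peaks for 92 of 204 transcripts. Each list came from 1 library, and counts rest on peak calls that depend on depth. Named members are those listed for their known role, the 5 with the most tags in each set found in 1 condition only, the 2 with the most stromal tags in each class, the highest and lowest ratio of each class with at least 10 tags in each library, and members called by both levels. Others, such as those of short sets, calls or promoters shown, were chosen after their values were seen. The members, the classes and the lists were chosen with earlier results of these data known, and 3 names and the SLC35G genes were moved between classes after the member names were seen. Alternatives were peaks within 1 kb of a start, H3K27ac within 1 or 0.5 kb, at least 20 normalised tags, at least 5-fold over the surrounding region, the highest peak, no centring, at least 10 tags, 2-fold alone, tags per bp and overlap of peaks. A few members that this rule names are not reported here.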

Additional observations from a re-analysis of the deposited data

How the results depend on the processing

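Of the alternatives to the summary results, 50 stayed within 1.5 times the count or within the interval of the median, and 17 did not. The median H3K9ac ratio of members, 0.06, turned to −0.09 with at least 20 normalised tags and to −0.05 by the highest peak. With peaks within 1 kb of a start, 2 members were called higher in H3K9ac and 0 lower in H3K27ac. With H3K27ac within 0.5 kb, 4 were called lower in H3K27ac, and with peaks at least 5-fold over the surrounding region 5. With at least 20 normalised tags per peak, 2 members had H3K27ac in the stromal list only and 15 in both lists, 0 were called higher and 0 lower in H3K27ac, and 1 lower in H3K9ac; the medians of H3K27ac peaks lie below that minimum. By the highest peak 0 were called higher and 0 lower in H3K9ac, and 0 higher and 1 lower in H3K27ac, and SLC39A1 in H3K9ac reversed to 0.12. SLC31A1 in H3K27ac reversed to −1.50 with H3K27ac within 0.5 kb. Without centring 28 were called higher and 0 lower in H3K9ac, where the uncentred median of all genes was 0.99. Among these alternatives the share of all genes called was counted for the highest peak only. With at least 10 tags in each library 1 was called lower in H3K9ac and 1 in H3K27ac. Among 530 ratios of single members, 484 kept their call or lack of one, 26 lost and 18 gained a call in the same direction, and 2 reversed as given above; the sign turned in 48 of the 530, of which 46 had no call before or after. The cause was not tested. Of H3K9ac membership, 94 stromal only and 66 in both lists became 73 and 47 with at least 20 tags. No paired analysis was possible because each group was 1 library and no result comes from a test. The astromal H3K9ac library had the fewest tags at its median peak, 9 before normalisation, which limits what could be called.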
